A study of Mus musculus with 6 samples.

Results

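The 39 genes described here encode the glucose transporters and enzymes that take glucose through glycolysis, the pentose phosphate pathway, the pyruvate dehydrogenase complex and the tricarboxylic acid (TCA) cycle. They were found by gene symbol in a table of 41945 gene entries, where an entry that names several symbols was split and, for each symbol, the entry with the highest level was taken. All 39 were present, namely 20 genes of glucose uptake and glycolysis, 4 of the pentose phosphate pathway, 5 of the pyruvate dehydrogenase complex with its kinases and 10 of the TCA cycle. They were set against the 14926 entries that had a symbol, at least 1 FPKM (fragments per kilobase of transcript, scaled to the mapped fragments of a library, so a level corrected for transcript length) in either genotype and a value above 0 in both.

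RNA was sequenced from motor neurons made in culture from mouse embryonic stem cells (mESCs) of the FVB/N background, with 3 samples of each of 2 genotypes. The Hb9 control line is labelled wildtype and has both copies of mouse Smn, and the A2 SMA line lacks mouse Smn, which models severe spinal muscular atrophy (SMA). Both lines carry the human SMN2 transgene and the HB9:eGFP reporter, in which the Hb9 (Mnx1) promoter drives a green fluorescent protein. Cultures of both went through embryoid bodies and 5 days in 1 µM retinoic acid and 1 µM Smoothened agonist, and GFP-positive cells were collected by flow sorting. Each genotype came from a single mESC line, so genotype and line cannot be told apart. The table holds 1 FPKM value per genotype over its samples, so the spread between samples cannot be computed from these values. The authors' own p-values were not used, no difference below was tested, and every ratio is a description of these values.

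Glycolysis splits glucose to pyruvate in the cytosol, and many of its steps are run by isozymes encoded by separate genes with different tissue patterns. Neurons are known to use the transporter Slc2a3 and the enolase Eno2, which is widely used as a marker of mature neurons, whereas pluripotent stem cells are known for a strongly glycolytic metabolism. The pentose phosphate pathway branches off at the first product of hexokinase and supplies NADPH and ribose, and pyruvate dehydrogenase feeds acetyl-CoA from pyruvate into the TCA cycle in mitochondria.

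The targeted gene Smn1 was listed at 136.5 FPKM in Hb9 control and 5.26 FPKM in A2 SMA, a log2 ratio of -4.70. Over all 14926 genes compared, the median log2 ratio of A2 SMA over Hb9 control was -0.29, with quartiles of -0.89 and 0.19, so each member is also described relative to the median gene. The sorted cells differed in cell type markers. All 10 compared pan-neuronal markers were lower in A2 SMA, with summed levels of 1499 FPKM in Hb9 control and 145 FPKM in A2 SMA, and all 10 pluripotency markers were higher, with summed levels of 282 and 1849 FPKM. Of 6 compared motor neuron markers, 5 were lower by at least 2-fold, where 22.4% of all genes were. They included Isl1 (108.0 and 5.95 FPKM), Lhx3 (27.6 and 0.348 FPKM) and Chat (15.5 and 0.344 FPKM), while Mnx1, whose promoter drives the reporter, was at 41.2 and 44.2 FPKM. Fibroblast markers were lower in 6 of 8 cases, where 65.9% of all genes were lower, and glial markers in 6 of 6, with sums of 68.8 and 35.6 FPKM and of 88.1 and 23.9 FPKM. In these bulk values, fewer cells of a type and less RNA per cell cannot be told apart, and the part of these marker differences in the enzyme values below was not tested.

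As a group the enzyme transcripts were abundant and close between the genotypes, with a few wide exceptions among glycolytic isozymes. The 39 members had log2 ratios from -2.39 to 1.31 with a median of -0.10, and 30 of them (76.9%) were within 1.5-fold, compared with 51.9% of all genes. Only Pfkp and Ldhb were higher in A2 SMA by at least 2-fold, where 6.83% of all genes were, and only Eno2 and Pgam1 were lower by at least 2-fold, where 22.4% of all genes were. In total 13 members were above and 26 (66.7%) below a ratio of 1, where 65.9% of all genes were below, but relative to the median gene 23 were above and 16 below and their median was 0.19. Relative to the median gene, Pfkp, Ldhb and Slc2a3 were higher by at least 2-fold (10.4% of all genes) and Eno2 alone was lower (16.5% of all genes).

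Abundant genes were closer between the genotypes than all genes were. The 2705 genes whose mean FPKM lay between the quartiles of the members' mean FPKM (51.4 and 253 FPKM) had a median log2 ratio of -0.13, and 68.3% of them were within 1.5-fold. Relative to the median gene 60.6% of them were above, with a median of 0.16, near the 59.0% and 0.19 of the members. By at least 2-fold, 96 of the 2705 were higher and 287 lower. Of the members, 21 reached 100 FPKM in Hb9 control and 19 did in A2 SMA, and 9 stayed under 50 FPKM in both. The pathways differed little in their medians, which were -0.07 for glycolysis, -0.38 for the pentose phosphate pathway, 0.02 for pyruvate dehydrogenase and -0.18 for the TCA cycle. Relative to the median gene these became 0.22, -0.09, 0.31 and 0.11, so the sign for glycolysis and the TCA cycle depends on the scaling.

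**Figure D1:**
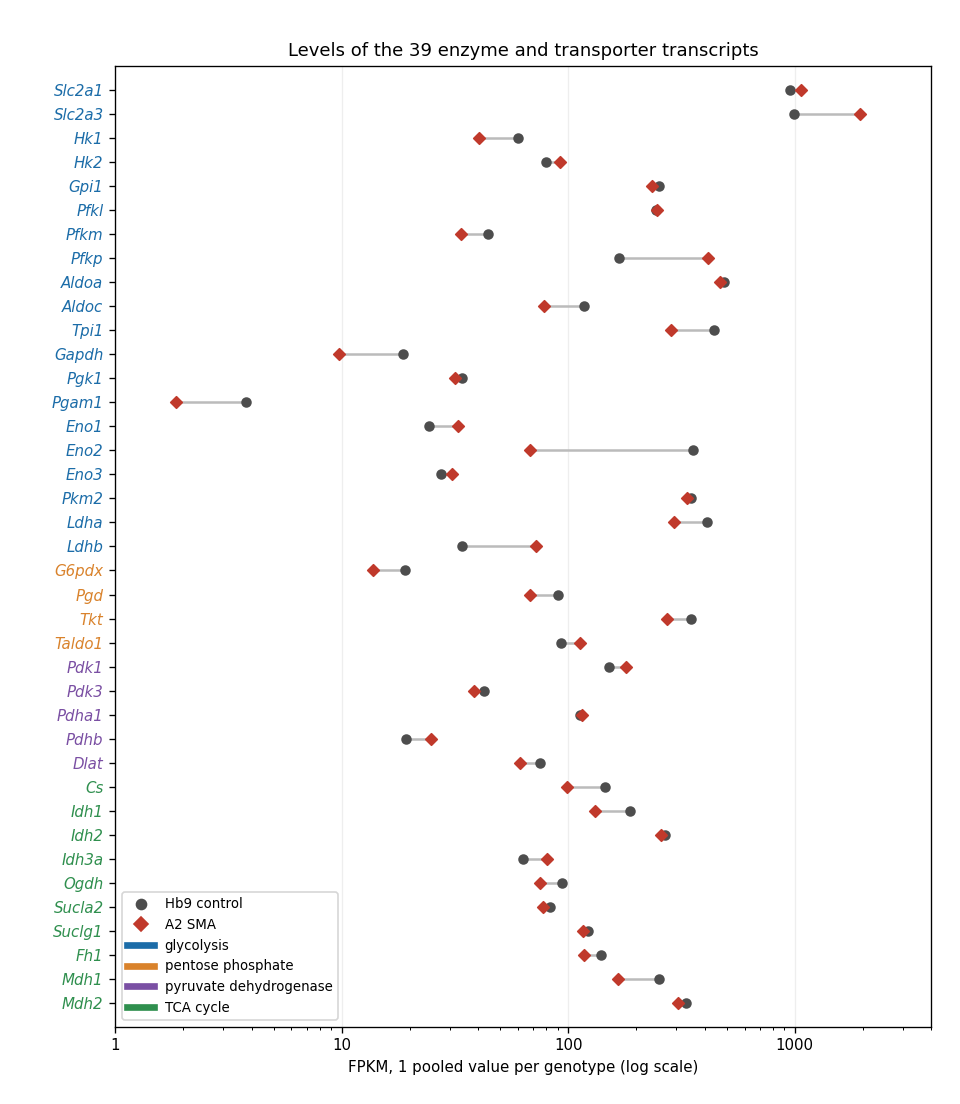
Level of each of the 39 transcripts on a log axis in FPKM, with a circle for Hb9 control and a diamond for A2 SMA (1 pooled value per genotype, so no error bars). Most pairs nearly overlap, Eno2 spans 354 to 67.6 FPKM, and Gapdh and Pgam1 sit far below their neighbours in the pathway.

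**Figure D2:**
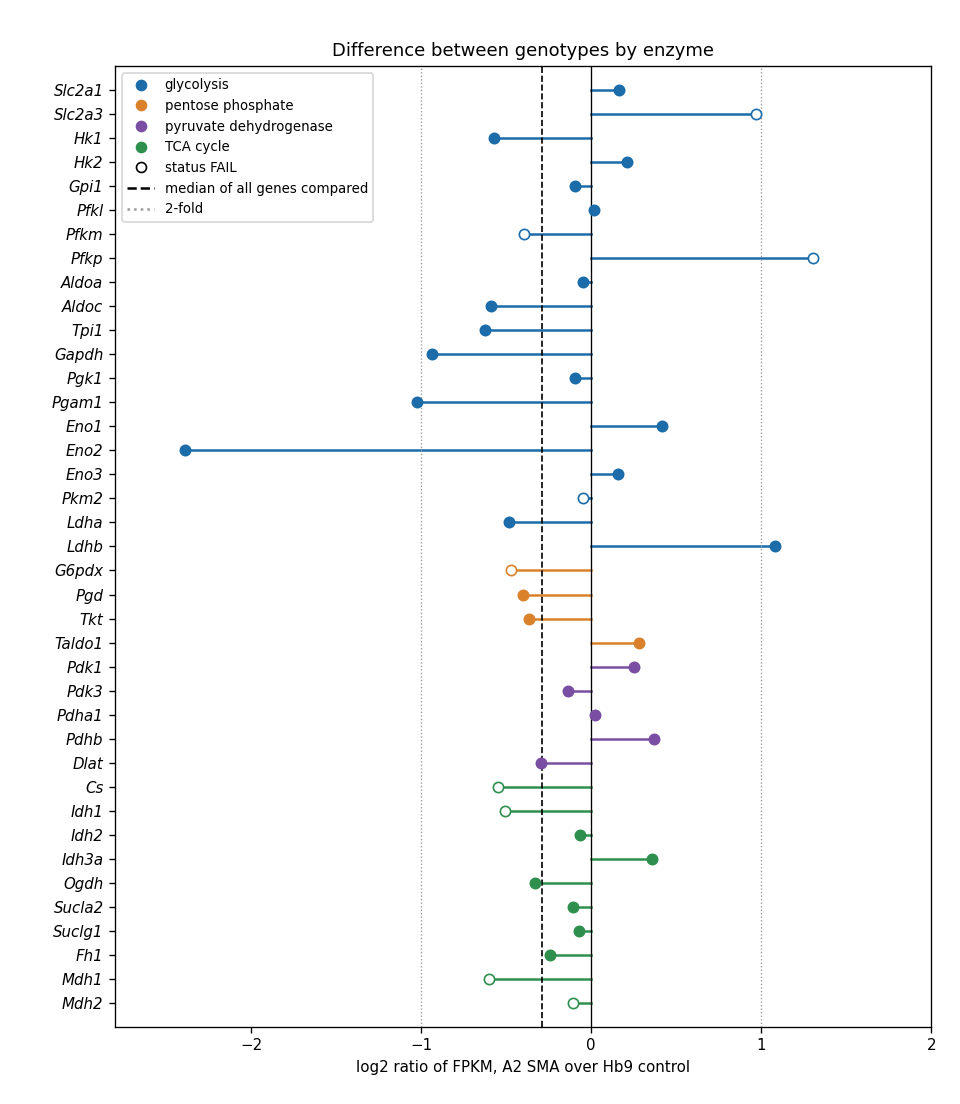
Log2 ratio of FPKM, A2 SMA over Hb9 control, for each member in pathway order, with open points for entries whose comparison the authors' software marked as failed and a dashed line at the median of all genes (-0.29). Eno2 (-2.39) and Pfkp (1.31) mark the ends of the range, and the 10 members between the dashed line and 0 change sign with the scaling.

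The promoters of Eno2, Pfkp and Ldhb, the isozymes with ratios past 2-fold, together with that of Ldha, the abundant partner of Ldhb, are shown for the short motifs they do or do not hold. Each line below gives 250 bases upstream of the annotated start, 5′ to 3′ on the gene's strand, from RefSeq on GRCm38.p6, and capitals mark ACGTG or GCGTG, the core of the element bound by hypoxia-inducible factors, on either strand, and CACGTG, the E-box bound by Myc, Mlx and related factors, which contains ACGTG.
Eno2 chr6:124769674-124769923 (-): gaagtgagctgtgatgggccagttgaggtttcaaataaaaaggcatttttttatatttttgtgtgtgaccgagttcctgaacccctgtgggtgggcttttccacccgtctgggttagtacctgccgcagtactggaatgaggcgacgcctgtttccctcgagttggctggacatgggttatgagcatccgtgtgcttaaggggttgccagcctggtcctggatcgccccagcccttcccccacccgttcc
Ldha chr7:46845554-46845803 (+): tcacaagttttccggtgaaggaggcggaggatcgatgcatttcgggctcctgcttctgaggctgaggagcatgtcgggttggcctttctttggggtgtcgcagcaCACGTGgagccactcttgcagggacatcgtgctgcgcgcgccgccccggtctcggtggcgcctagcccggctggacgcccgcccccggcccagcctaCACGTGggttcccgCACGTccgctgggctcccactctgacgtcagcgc
Ldhb chr6:142507958-142508207 (-): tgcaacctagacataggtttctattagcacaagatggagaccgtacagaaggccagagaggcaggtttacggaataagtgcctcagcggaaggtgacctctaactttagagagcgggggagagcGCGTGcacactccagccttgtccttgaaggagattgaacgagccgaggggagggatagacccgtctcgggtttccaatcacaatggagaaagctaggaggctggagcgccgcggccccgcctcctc
Pfkp chr13:6648772-6649021 (-): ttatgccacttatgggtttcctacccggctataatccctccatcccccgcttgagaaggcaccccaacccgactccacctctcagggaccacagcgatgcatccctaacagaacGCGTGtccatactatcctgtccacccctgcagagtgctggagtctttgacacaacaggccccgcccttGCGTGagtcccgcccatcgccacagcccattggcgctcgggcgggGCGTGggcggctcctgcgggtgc
The Ldha window shown holds CACGTG at 2 places and a further ACGTG on the other strand, whereas that of its other annotated start holds neither and has GCGTG at 1 place, the Pfkp window holds GCGTG at 3 places, the Ldhb window holds it at 1, and the Eno2 window holds none of these letters. Pgam1, which was also lower by at least 2-fold, is not printed, and its window holds ACGTG at 1 place and GCGTG at 2. Promoter entries were matched for 37 of the 39 members, all but Idh3a and Slc2a3, and 31 of these genes (83.8%) had ACGTG or GCGTG within such a window, compared with 61.5% of the compared genes that were matched and 41.5% of all genes in the promoter table. Counted by promoter, since genes differ in their number of annotated starts, the shares were 76.8% of 56 member promoters and 55.1% of the promoters of the compared genes. By gene, ACGTG alone was in 32.4% of the members and 25.1% of the compared genes, GCGTG in 70.3% and 50.1%, and CACGTG in 8.11% and 9.94%. The median GC content of the windows was 60% in both sets. A match describes the letters and not binding.

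Glucose uptake was the most abundant step, and more so in A2 SMA. Slc2a1 (GLUT1), the widely expressed basal glucose transporter, was at 956 FPKM in Hb9 control and 1070 FPKM in A2 SMA. Slc2a3 (GLUT3), the high-affinity transporter of neurons and of the early embryo, was at 996 and 1949 FPKM, a log2 ratio of 0.97, in an entry at chr6:122677826-122751658 (NCBI m37). Both were higher in A2 SMA under each scaling, and Slc2a3 was the highest of the 39 members in both genotypes. Its share of the summed transporter level was 51.0% in Hb9 control and 64.6% in A2 SMA. The Slc2a3 entry is among 9 members (23.1%) that carry the status FAIL, meaning that Cuffdiff did not complete its comparison, against 13.98% of all genes compared.

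The transporters set the direction of the summed pathway level. The 39 members summed to 7725 FPKM in Hb9 control and 8095 FPKM in A2 SMA, and the transporters alone accounted for 1952 and 3019 FPKM of this. The 9 members with the status FAIL, Slc2a3 among them, summed to 2487 and 3447 FPKM, and the 30 without it to 5239 and 4648 FPKM. The 18 glycolytic enzymes without the transporters summed to 3139 and 2765 FPKM, with a median log2 ratio of -0.09 that was 0.20 relative to the median gene.

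The hexokinases, which trap glucose in the cell by phosphorylation, lay on opposite sides. Hk1, the main hexokinase of brain, was at 59.7 FPKM in Hb9 control and 40.2 FPKM in A2 SMA (log2 ratio -0.57). Hk2, the inducible form of muscle and of proliferating cells, was at 79.5 and 92.0 FPKM (0.21). Hk2 was thus the larger part of the step in both genotypes, with 57.1% in Hb9 control and 69.6% in A2 SMA, while the summed level of both was close at 139 and 132 FPKM. Gpi1, the isomerase that follows, was at 251 and 235 FPKM, a log2 ratio of -0.09 that was 0.20 relative to the median gene.

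Phosphofructokinase, the main committed step of glycolysis, showed the largest higher ratio of the set. Pfkp, the platelet-type subunit that is also expressed in brain, was at 167 FPKM in Hb9 control and 413 FPKM in A2 SMA, 2.47-fold higher in an entry at chr13:6547402-6648054 (NCBI m37). Pfkl, the liver-type subunit, was at 243 and 246 FPKM, and Pfkm, the muscle-type subunit, was at 44.3 and 33.7 FPKM. The leading subunit therefore differed between the genotypes, with Pfkl at 53.5% of the step in Hb9 control and 35.5% in A2 SMA, Pfkp at 36.7% and 59.6%, and Pfkm at 9.75% and 4.88%. The ratio of Pfkp to Pfkl was 0.686 in Hb9 control and 1.68 in A2 SMA. Pfkp and Pfkm both carry the status FAIL, and the Pfkp entry overlaps the gene Pitrm1 while the Pfkm entry overlaps Senp1.

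Aldolase and triosephosphate isomerase make and interconvert the triose phosphates. Aldoa, the ubiquitous aldolase, was at 486 and 470 FPKM (log2 ratio -0.05, and 0.24 relative to the median gene) in an entry shared with Gm15676. Aldoc, the aldolase of brain, was at 118 FPKM in Hb9 control and 78.3 FPKM in A2 SMA (-0.59) and made up 19.5% and 14.3% of the step. Tpi1, with no isozyme in the set, was at 440 and 285 FPKM, a log2 ratio of -0.63. Aldoc and Tpi1 were lower in A2 SMA under each scaling.

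The next 3 steps were listed far below their neighbours in both genotypes. Gapdh, the dehydrogenase that makes the first NADH of the pathway, was at 18.7 FPKM in Hb9 control and 9.76 FPKM in A2 SMA (log2 ratio -0.94). Pgk1, which makes the first ATP, was at 33.9 and 31.7 FPKM (-0.10, and 0.19 relative to the median gene), and the mutase Pgam1 was at 3.78 and 1.86 FPKM (-1.02). The steps on either side, triosephosphate isomerase and enolase, were listed at 440 and 406 FPKM in Hb9 control. Pgam1 passed 2-fold by a narrow margin of 2.03-fold at the lowest level of the set, and it did not pass relative to the median gene, where its log2 ratio was -0.73.

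These low entries coincide with sequence shared with other genes, chiefly processed pseudogenes, which are copies of spliced transcripts that lie elsewhere in the genome. Of the 50-base windows of the Gapdh transcript (50 bases being the read length), 82.5% occurred exactly in at least 1 of 218 other annotated genes, 205 of them pseudogenes. The share was 72.2% for Eno1, 68.0% for Pgk1, 41.5% for Pgam1, 34.4% for Pkm2, 30.3% for Pdhb and 27.0% for Ldhb, and 22 members shared no window. At least 50% of windows were shared in 3 members (7.69%) and in 1.82% of the compared genes that could be matched. Those 3 members had mean levels of 14.2 to 32.8 FPKM, while the other 36 had a median of 120 FPKM. Levels did not follow shared windows in every member. Pkm2 had a mean level of 340 FPKM at 34.4% shared windows, whereas Eno3 had 29.1 FPKM with none and G6pdx 16.4 FPKM with 7.65%, and Pgam1 was lowest at 2.82 FPKM with 41.5%. The part of shared sequence in these levels was not tested.

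**Figure D3:**
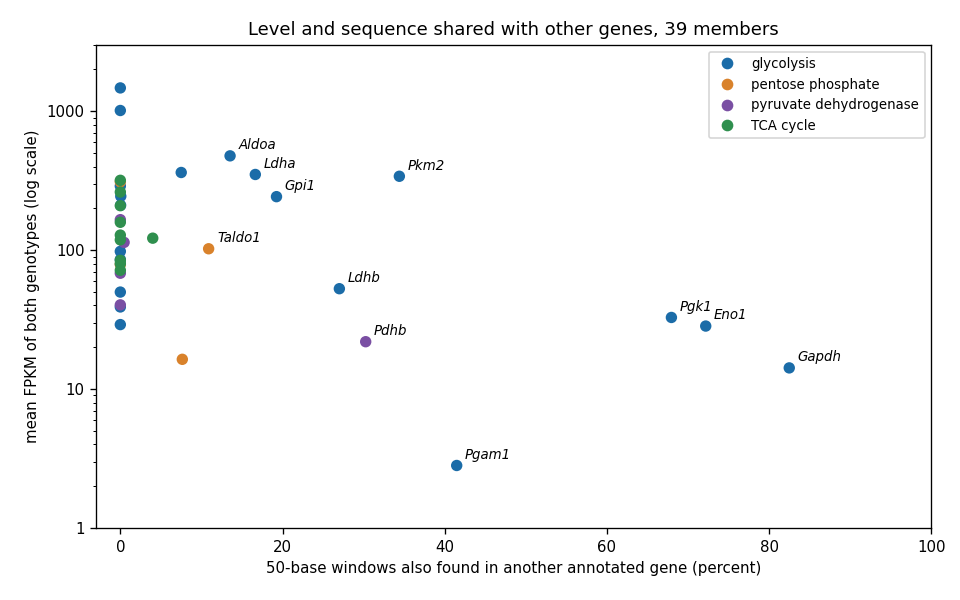
Mean FPKM of both genotypes (log axis) against the percent of 50-base windows of a member's transcript that occur in another annotated gene, with 1 point per member coloured by pathway. Gapdh, Eno1 and Pgk1, at the right, lie between 14.2 and 32.8 FPKM, and 6 of the 7 members with at least 25% shared windows lie under 60 FPKM.

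Enolase, which makes phosphoenolpyruvate, held the widest difference of all 39 genes. Eno2, the neuronal enolase, was at 354 FPKM in Hb9 control and 67.6 FPKM in A2 SMA, 5.23-fold lower in an entry at chr6:124710010-124719799 (NCBI m37). A further entry of Eno2 at the same position was at 40.7 and 6.23 FPKM (log2 ratio -2.71), so both entries lay on the same side. Eno1, the ubiquitous enolase, was at 24.4 and 32.5 FPKM (0.42), and Eno3, the muscle form, was at 27.5 and 30.7 FPKM (0.16). The step as a whole was at 406 and 131 FPKM, a log2 ratio of -1.63.

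By these listed levels enolase was mostly Eno2 in Hb9 control and mixed in A2 SMA. The share of Eno2 was 87.2% in Hb9 control and 51.7% in A2 SMA, that of Eno1 was 6.004% and 24.9%, and that of Eno3 was 6.79% and 23.5%. Since 72.2% of the Eno1 windows occur in other genes, against 0.0364% for Eno2 and 0% for Eno3, the Eno1 shares rest on the least distinct sequence of the 3. The Eno2 and Eno3 shares and the summed level of the step include the Eno1 level and carry the same limit. The difference in Eno2 moved with the pan-neuronal markers, all 10 of which were lower, with log2 ratios from -4.56 to -1.63. The Eno2 ratio of -2.39 was nearer to 0 than those of all these markers except Stmn2 (-1.63, status FAIL), and the list had a median of -4.00. The part of neuron content in it was not tested.

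**Figure D4:**
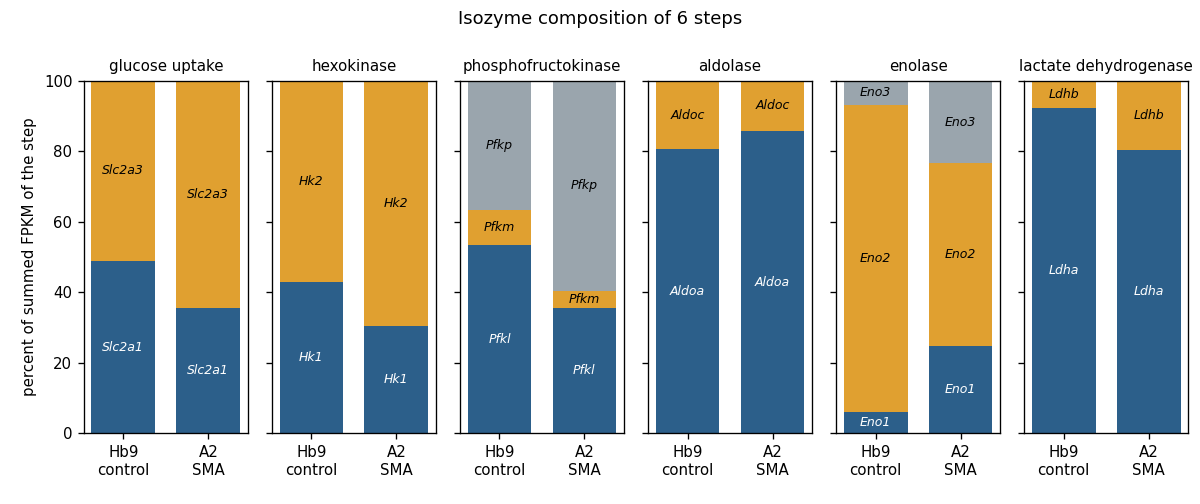
Percent of the summed FPKM of a step held by each isozyme gene, for 6 glycolytic steps, with 1 bar per genotype (pooled values, no error bars). Eno2 takes 87.2% of enolase in Hb9 control and 51.7% in A2 SMA, Pfkp takes 36.7% and 59.6% of phosphofructokinase, and Ldhb takes 7.66% and 19.7% of lactate dehydrogenase. The enolase shares include the level of Eno1, most of whose windows are shared with other genes.

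Pyruvate kinase and lactate dehydrogenase close the pathway. Pkm2, the symbol under which the table lists the muscle-type pyruvate kinase gene and not its M2 splice form, was at 346 FPKM in Hb9 control and 335 FPKM in A2 SMA (log2 ratio -0.05, and 0.24 relative to the median gene, status FAIL). Ldha, whose subunit is known for turning pyruvate to lactate, was at 409 and 293 FPKM (-0.48). Ldhb, whose subunit is enriched in oxidative tissues such as heart, was at 33.9 and 71.7 FPKM, 2.11-fold higher in an entry at chr6:142438760-142456508 (NCBI m37). Ldha was lower and Ldhb higher in A2 SMA under each scaling.

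Ldha stayed the main lactate dehydrogenase in both genotypes, by a smaller factor in A2 SMA. The ratio of Ldha to Ldhb was 12.1 in Hb9 control and 4.08 in A2 SMA, and Ldhb held 7.66% and 19.7% of the step. The summed level was 443 and 364 FPKM, a log2 ratio of -0.28 beside -0.29 for the median gene. The pseudogene Gm5514, the gene that shares 27.0% of the Ldhb windows, was itself listed at 30.1 and 57.9 FPKM, so the Ldhb difference appeared in both entries and reads of one cannot all be told from reads of the other. Slc2a3, Pfkp and Ldhb were on the same side as all 10 pluripotency markers, whose log2 ratios ran from 1.16 to 3.37, and the part of stem cell content in these values was not tested.

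Of the pentose phosphate enzymes 3 of 4 were lower in A2 SMA, as were 65.9% of all genes, and none reached 1.5-fold. G6pdx, the dehydrogenase that commits glucose to the pathway, was at 19.04 FPKM in Hb9 control and 13.7 FPKM in A2 SMA (log2 ratio -0.47) in an entry that overlaps Ikbkg and has the status FAIL. Pgd, which makes the second NADPH, was at 89.8 and 68.1 FPKM (-0.40). In the branch that returns sugars to glycolysis, Tkt was at 350 and 272 FPKM (-0.36) in an entry shared with Mir3076, and Taldo1 was at 92.4 and 112 FPKM (0.28). The oxidative enzymes and transketolase were thus below the median gene and transaldolase above it, and the 4 summed to 551 and 466 FPKM.

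The 5 members of the pyruvate dehydrogenase group were all within 1.5-fold between the genotypes. Pdha1 and Pdhb, the subunits of the E1 component, were at 113 and 115 FPKM (log2 ratio 0.02) and at 19.1 and 24.7 FPKM (0.37). Dlat, the E2 component that hands on the acetyl group, was at 75.2 and 61.3 FPKM (-0.29, the same as the median gene to 2 decimals). Pdk1 and Pdk3 phosphorylate E1 and switch it off, and they were at 151 and 180 FPKM (0.25) and at 42.3 and 38.5 FPKM (-0.13, and 0.16 relative to the median gene). The E1 subunits work in equal number, whereas their listed levels differed several-fold in both genotypes. The Pdha1 entry overlaps Gm15194, Gm8682 and Map3k15. The Pdhb entry overlaps Pxk and shares 30.3% of its windows with a pseudogene, and the part of overlap or shared windows in the E1 levels was not tested.

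In the TCA cycle group, which includes the cytosolic enzymes Idh1 and Mdh1, 9 of 10 members were below a ratio of 1, but relative to the median gene 6 were above and 4 below. Cs, which starts the cycle by making citrate, was at 145 FPKM in Hb9 control and 99.2 FPKM in A2 SMA (log2 ratio -0.55). Idh3a, the catalytic subunit of the NAD-dependent isocitrate dehydrogenase of the cycle, was the exception at 62.9 and 80.5 FPKM (0.36). Ogdh, the E1 component of the 2-oxoglutarate dehydrogenase complex, was at 94.2 and 74.8 FPKM (-0.33). Cs, Ogdh and the cytosolic Idh1 and Mdh1 are the 4 members of the group that were lower under each scaling.

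For succinyl-CoA synthetase and fumarase the differences were small. The succinyl-CoA synthetase subunits Sucla2 and Suclg1 were at 82.8 and 77.1 FPKM (-0.10) and at 122 and 116 FPKM (-0.07), both above the median gene. Fh1, the fumarase, was at 139 and 118 FPKM (-0.24), which was 0.05 relative to the median gene and lower when scaled to Gusb and Rpl13a. The 10 members of the TCA cycle group summed to 1683 and 1425 FPKM.

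For isocitrate and malate dehydrogenase the cytosolic form was the one further below. Idh1, the cytosolic NADP-dependent enzyme, was at 186 and 131 FPKM (-0.51), whereas its mitochondrial counterpart Idh2 was at 268 and 256 FPKM (-0.07, and 0.22 relative to the median gene). Mdh1, the cytosolic malate dehydrogenase of the malate-aspartate shuttle, was at 252 and 166 FPKM (-0.60), whereas the mitochondrial Mdh2 was at 330 and 306 FPKM (-0.11, and 0.18 relative to the median gene). The mitochondrial share of each pair was accordingly higher in A2 SMA, at 59.0% and 66.1% for Idh2 and at 56.7% and 64.8% for Mdh2. Cs, Idh1, Mdh1 and Mdh2 carry the status FAIL, and the Mdh1 entry overlaps Wdpcp and 3 other entries.

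Genes of the same pathways outside the set give a wider range, mostly at low levels. Of 67 such genes, 57 could be compared, with a median log2 ratio of -0.23, and 4 were higher and 10 lower by at least 2-fold, near or below the shares of all genes (6.83% and 22.4%). Within 1.5-fold were 29 of the 57 (50.9%), near the 51.9% of all genes and unlike the 76.9% of the members. Among other glycolytic genes 15 of 22 were compared, with a median of -0.75 and 6 of 15 within 1.5-fold. Those lower by at least 2-fold included the hexokinase Hk3 (3.70 and 0.0419 FPKM), the transporters Slc2a4 (5.10 and 2.37 FPKM) and Slc2a10 (1.54 and 0.372 FPKM) and the monocarboxylate carrier Slc16a7 (1.05 and 0.252 FPKM). The testis-type Ldhc was the single gene of that list higher by 2-fold, at 1.09 and 2.60 FPKM. Slc16a3, a lactate exporter and the most abundant gene of the list, was at 380 and 218 FPKM with the status FAIL.

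Of 9 compared regulators and gluconeogenic genes 2 were higher and 3 lower by at least 2-fold, where 6.83% and 22.4% of all genes were, and 4 were within 1.5-fold, where 51.9% of all genes were. The Pfkfb enzymes set the level of fructose 2,6-bisphosphate, the activator of phosphofructokinase. Pfkfb3 was at 57.6 FPKM in Hb9 control and 13.7 FPKM in A2 SMA (log2 ratio -2.07, status FAIL) and Pfkfb4 at 11.2 and 3.32 FPKM, whereas Pfkfb1 (12.3 and 14.3 FPKM) and Pfkfb2 (5.82 and 4.96 FPKM), named after their values were seen, were within 1.5-fold. The glucose-6-phosphatase G6pc3 was also lower, at 87.3 and 32.9 FPKM. Pck2, the mitochondrial form of the gluconeogenic carboxykinase, was at 33.8 and 77.7 FPKM and Fbp2 at 1.09 and 2.54 FPKM, and the median of the list was 0.22.

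In the later pathways 1 further gene of each list passed 2-fold, where 6.83% of all genes were higher and 22.4% lower by as much. It was higher in A2 SMA for the pentose phosphate list and lower for the pyruvate dehydrogenase and TCA cycle lists. Within 1.5-fold were 2 of 8 pentose phosphate genes, 5 of 10 pyruvate dehydrogenase genes and 12 of 15 TCA cycle genes, where 51.9% of all genes were. All 8 further pentose phosphate genes were compared, with a median of 0.14, and Tktl2 (0.102 and 1.89 FPKM) was the one past 2-fold. The most abundant, Pgls (in an entry shared with Fam129c) and Prps1, were at 117 and 62.7 FPKM and at 40.0 and 76.4 FPKM. For pyruvate dehydrogenase 10 further genes had a median of -0.39, with the mitochondrial pyruvate carrier subunit Brp44l past 2-fold at 3.69 and 1.53 FPKM and the E3 component Dld at 86.0 and 66.1 FPKM. The 15 further TCA cycle and neighbouring genes had a median of -0.14, and Me3, a malic enzyme, was the one past 2-fold at 3.47 and 0.127 FPKM. The abundant genes of that list lay close to the members, with Sdha at 359 and 307 FPKM and Sdhc at 283 and 258 FPKM, apart from Acly, which makes cytosolic acetyl-CoA, at 627 and 368 FPKM with the status FAIL.

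Hypoxia-inducible factors are known to activate many glycolytic genes, so response genes outside the pathway were set beside the members. All 15 were lower in A2 SMA, with a median log2 ratio of -0.81, and 12 of 15 were lower relative to the median gene, where the median was -0.52. Adm (-1.61), Car9 (-1.20) and Mxi1 (-1.09), 3 of the 15, were lower by at least 2-fold, where 22.4% of all genes were, and 1 was relative to the median gene, where 16.5% of all genes were. The most abundant, Ddit4 (410 and 207 FPKM), Vegfa (228 and 114 FPKM) and P4ha1 (209 and 107 FPKM), were just short of 2-fold lower. Of the 20 glycolytic members 8 were above and 12 (60%) below a ratio of 1, where 65.9% of all genes were below, and 12 were above and 8 below relative to the median gene. Whether these factors have a part in either set of values was not tested.

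**Figure D5:**
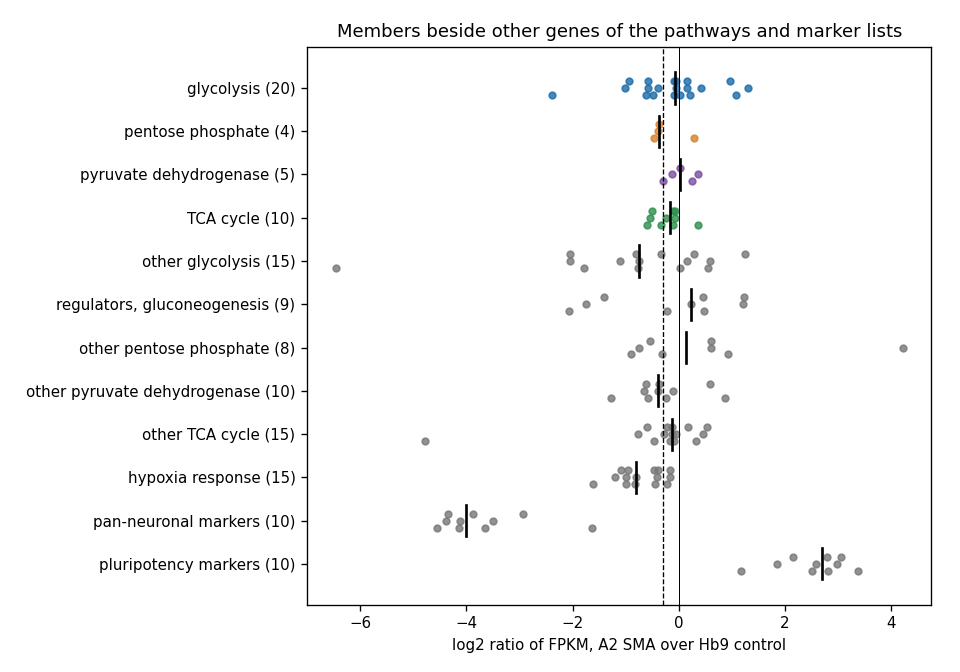
Log2 ratio of FPKM, A2 SMA over Hb9 control, for the members by pathway (coloured) and for other pathway genes and marker lists (grey), with 1 point per gene, a bar at each list's median, a dashed line at the median of all genes (-0.29) and the number of genes in brackets. The members cluster between -1.02 and 1.31 apart from Eno2, the 15 hypoxia response genes all lie below 0, and the pan-neuronal and pluripotency markers lie far to either side.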

How the data were processed

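Transcriptomes of GFP-sorted mESC-derived motor neurons were sequenced with 3 samples per genotype (TruSeq libraries). Per the labels and the study's methods, the authors checked reads with FastQC 0.10.1, trimmed them with cutadapt, aligned them with TopHat2 2.04 to NCBI m37 with Ensembl annotation, and compared genotypes with Cufflinks and Cuffdiff. The deposited table gives 1 FPKM value per genotype and gene, so FPKM is corrected for length and depth but holds no reads, replicate values or intervals. The library depths that the study states were not used here, and the number of reads behind a gene's value cannot be read from the table. How reads that match several places were shared is not given in the sources used here, and a value may hold reads of a similar gene. The table also lists the authors' own log2 fold changes, test statistics, p-values and q-values, which were not used. Only the status column was kept.

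In Python 3.11.15 (pandas 2.3.3, numpy 2.4.6, figures by matplotlib 3.10.9), the log2 ratio of A2 SMA over Hb9 control was taken without a pseudocount for entries with at least 1 FPKM in either genotype and above 0 in both. A 2-fold ratio was counted as a difference, as a description and not a test, and the calculation was checked on simulated data. Relative values subtract the median log2 ratio of all genes. An isozyme share is its percent of the summed FPKM of its step. Overlaps with other entries are named for some members and not for all that have them. All 39 members were named, and of the other lists the genes past 2-fold and otherwise the most abundant, except that the marker lists are given by counts and sums with a few examples. The members and lists were chosen with earlier results of these data known. Other alternatives were scaling, pseudocount, filter, status, shared entries and fold. Shared windows are 50-base windows of the longest coding transcript found exactly, in the same sense, in another gene of GENCODE M21 (GRCm38), and 86.4% of the compared genes were matched. Promoters came from RefSeq (GRCm38.p6), and no coordinate was converted between builds. Slc18a3, Tubb3 and Map2 were not analysed here. A gene of the other glycolytic list that the naming rule would give is not reported here.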

Additional observations from a re-analysis of the deposited data

How the results depend on the processing

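No paired analysis was possible because the table holds 1 pooled FPKM per genotype, although the samples share replicate numbers, and for the same reason no sample could be left out. The scaling mattered most. The median log2 ratio of the members became 0.19 relative to the median gene, 0.18 relative to the upper quartile of FPKM and 0.059 relative to Gusb and Rpl13a. That of glycolysis became 0.22, 0.22 and 0.091, and that of the TCA cycle 0.11 and 0.11 under the first and second of these. The number of members above a ratio of 1 became 23, 23 and 22. Relative to the median gene and to the upper quartile 10 members changed sign, and 9 did relative to Gusb and Rpl13a. No member changed sign with a pseudocount of 1 FPKM or with summed entries. Pgam1 lay near the limit, and 1 member, not 2, was lower by 2-fold under each of the scalings, with a pseudocount of 0.1 or 1 FPKM and with a filter of 5 FPKM, whereas 6 were lower by 1.5-fold. Without the status FAIL 1 member was higher by 2-fold. Leaving out the 7 members with at least 25% shared windows, which was chosen after seeing the data, left 1 higher and 1 lower and gave a pyruvate dehydrogenase median of -0.055. The other 306 values moved by no more than the limits set (1.5-fold for a ratio or a count, 5 percentage points for a share), the sign changes of single members among them.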

Other observations

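Of 14 transcription factors and RNA-binding proteins with known roles in the expression of glycolytic or mitochondrial genes, 10 were within 1.5-fold, where 51.9% of all genes were. By at least 2-fold 2 were higher and 2 lower, where 6.83% and 22.4% of all genes were. Hif1a was at 59.4 FPKM in Hb9 control and 62.6 FPKM in A2 SMA and Myc at 10.1 and 9.73 FPKM, and the median log2 ratio of the list was 0.07. Esrrb, which is also a pluripotency marker, was at 25.6 and 179 FPKM and Trp53, which encodes p53, at 65.2 and 170 FPKM, both with the status FAIL. Ppargc1a, a coactivator of mitochondrial genes, was at 1.97 and 0.267 FPKM and Lin28b at 18.8 and 7.37 FPKM. The transcripts Gusb and Rpl13a, used as references, were at 26.2 and 19.02 FPKM and at 256 and 281 FPKM. The Rpl13a value is that of an entry shared with Flt3l, Snord32a, Snord33 and Snord34.

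Across the 39 members the percent of shared windows and the log2 mean level had a Pearson r of -0.47 and a Spearman rho of -0.22. This is a description across genes of the same libraries, in which 22 genes are tied at 0.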
